A study of Schmidtea mediterranea with 171 samples.

Results

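Single X2 cells of the planarian *Schmidtea mediterranea* were divided by their level of piwi-1 (SmedASXL_008653), and cells low in this transcript were compared with cells high in it. Levels are in CPM (counts-per-million), which are the reads of a transcript scaled to a fixed total of reads assigned to any transcript of the same cell. Cells below 20 CPM were called low and cells at 100 CPM or more were called high. Of the 72 X2 cells, 41 were low, 23 were high and 8 lay between the cuts and were left out, so the comparison covers 64 of the 168 single cells of the series. The members were chosen by a measured value, their piwi-1 level, and piwi-1 itself is therefore described but not compared.

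All cells came from amputated, pooled heads of wildtype animals of the clonal asexual strain CIW4, which were starved before collection, and were sorted by FACS. X1 and X2 are gates on Hoechst fluorescence. X1 cells hold replicated DNA and X2 cells do not, and X2 cells are taken as the early progeny of the X1 stem cells. For comparison, the series also holds 96 single X1 cells, 2 tubes of 200 X1 cells and 1 tube of 200 X2 cells, all amplified by SmartSeq2. No label ties a single cell to an animal, a sort or a preparation strip. The X2 cells of each group are thus parts of 1 sample and not replicates, no test was made between them, and each SD below is a spread between cells.

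Planarian stem cells, the neoblasts, are the dividing cells of the animal and replace all of its tissues. They carry PIWI proteins, members of the Argonaute family that bind small RNAs called piRNAs and silence transposons. The piwi-1 transcript is the usual marker of neoblasts and declines as their progeny differentiate, whereas PIWI protein and some stem cell transcripts can outlast it in early progeny.

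The predicted starts of the coding regions of piwi-1 and of its relative piwi-2 are shown. The former defines the groups, and the latter is the listed stem cell transcript that was read in the most cells. Ybp2-1 and Ybp2-2, which the study names after the Y-box proteins that bind RNA, are shown because they stood above in high cells while most of their list stood below. Each run is 90 bases of the SmedASXL transcript as the study lists it. It begins at the first ATG with no in-frame stop codon in the bases listed. This ATG, in capitals, was taken as the start codon.
piwi-1: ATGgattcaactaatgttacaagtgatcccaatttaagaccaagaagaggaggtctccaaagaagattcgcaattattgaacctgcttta
piwi-2: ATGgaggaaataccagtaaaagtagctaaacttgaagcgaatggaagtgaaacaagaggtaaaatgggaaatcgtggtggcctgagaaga
Ybp2-1: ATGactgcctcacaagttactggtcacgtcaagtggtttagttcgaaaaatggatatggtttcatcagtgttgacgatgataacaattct
Ybp2-2: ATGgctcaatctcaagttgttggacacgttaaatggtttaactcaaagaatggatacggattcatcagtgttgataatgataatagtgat
Without gaps, piwi-1 and piwi-2 had the same base at 29 of these 90 positions (32.2%), and Ybp2-1 and Ybp2-2 at 68 of 90 (75.6%). How reads that match both of a pair were counted is not given in the sources used here, so the levels of the Y-box pair are less certain.

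In low cells piwi-1 ranged from 0 to 16.9 CPM with a median of 3.09 CPM, and in high cells from 134 to 7279 CPM with a median of 785 CPM. Nearest to the cuts, the highest low cell was at 16.9 CPM, the cells between ran from 29.4 to 79.4 CPM, and the lowest high cell was at 134 CPM. Low did not mean without reads. A median of 6 piwi-1 reads was counted per low cell and at most 60, and 2 low cells had none. The tube of 200 X2 cells was at 475 CPM (95% Poisson interval 464 to 487), between the medians of low and high cells. All intervals here cover counting error only, since the reads carry no molecular identifiers.

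**Figure D1:**
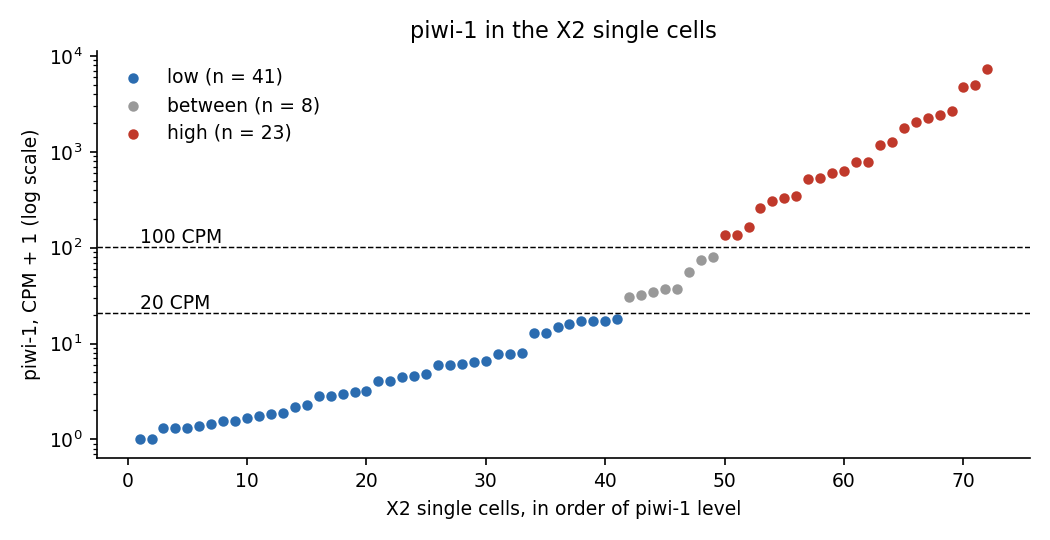
Level of piwi-1 in CPM plus 1 (log scale) in each of the 72 X2 cells, in rising order, with dashed lines at the cuts of 20 and 100 CPM. Low cells are blue, the 8 cells between are grey and high cells are red, and the 23 high cells begin at 134 CPM.

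The median number of assigned reads was alike in low cells (2.7 M, range 0.55 to 4.21 M) and high cells (2.8 M, range 1.1 to 4.79 M), but the means were not, at 2.4 M ± 1.0 (SD, n = 41) and 2.9 M ± 0.831 (SD, n = 23). The share of reads that reached a transcript differed as well. Reads assigned to no transcript made up 48.8% ± 19.2 (SD, n = 41) in low cells and 38.7% ± 10.8 (SD, n = 23) in high cells. In 17 of 41 low cells and 3 of 23 high cells fewer than 50% of the reads were assigned. A single transcript, SmedASXL_012104, took 56.3% ± 16.3 (SD, n = 41) of the assigned reads of low cells and 62.1% ± 13.8 (SD, n = 23) of those of high cells, which left a minority of reads for all others.

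High cells contained reads of somewhat more transcripts than low cells, but the groups overlapped almost fully. Leaving out piwi-1, a low cell had 1854 ± 608 transcripts (SD, n = 41; lowest 976, median 1847, highest 3672) and a high cell 2157 ± 736 (SD, n = 23; lowest 985, median 2092, highest 4364). The ratio of the means was 1.2, and the difference was smaller than the SD of either group. With each cell cut down at random to 100000 assigned reads (thinned), the means were 676 ± 292 (SD, n = 41) and 816 ± 339 (SD, n = 23). Among cells with at least 50% of their reads assigned, the means before thinning were 2148 ± 562 (SD, n = 24) and 2156 ± 749 (SD, n = 20), a ratio of 1. The part of the assigned share in this difference was not tested further. The 8 cells between the cuts had the highest mean, 2777 ± 1455 (SD, n = 8), so the number did not follow the order of piwi-1, and across the 72 X2 cells its rank correlation with piwi-1 was 0.14 as a description of cells that share 1 gate.

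**Figure D2:**
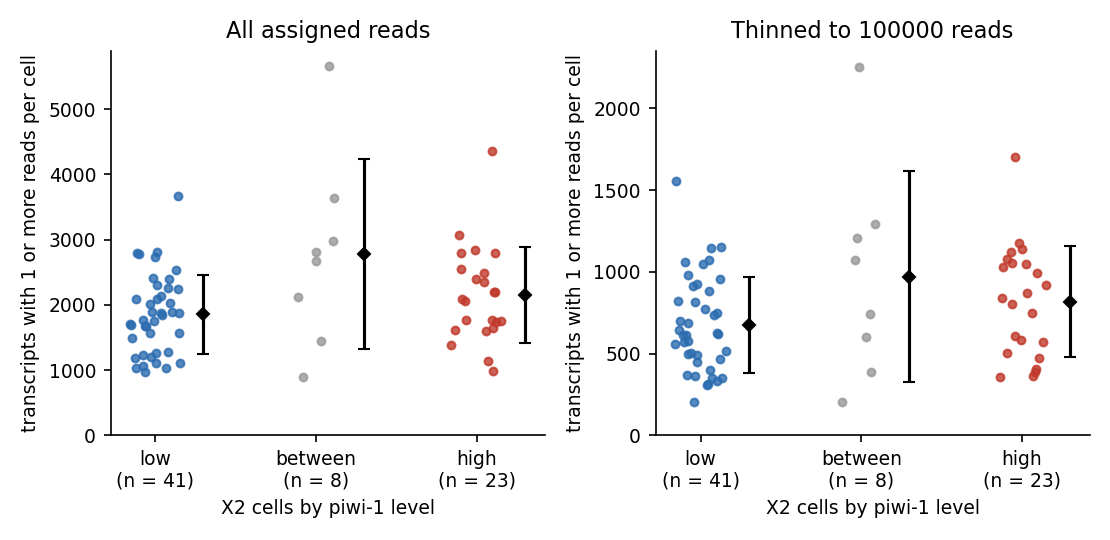
Transcripts with at least 1 read per X2 cell, piwi-1 left out, from all assigned reads (left) and after thinning to 100000 reads (right). Each point is 1 cell, and diamonds with bars are the mean and SD over cells; low and high cells overlap, with means of 1854 and 2157 before thinning.

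Of the other stem cell transcripts, piwi-2 was read after thinning in 30 of 41 low cells and piwi-3 in 18. The rest were read in fewer low cells, HP1-1 in 10, bruli and vasa-2 in 6 each and vasa-1 in 5. Of the 23 high cells, piwi-2 was read in 20, piwi-3 in 14, HP1-1 in 9, vasa-2 in 7, vasa-1 in 5 and bruli in 2. The share of cells was higher in high cells for 5 of the 6 transcripts and lower for bruli. Their median difference was 14.3 percentage points, against 5.78 points over the 388 transcripts compared by share further on. Of the 6 on the list (piwi-2, piwi-3, bruli, vasa-1, vasa-2 and HP1-1), 4 had a higher mean in high cells and 2 in low cells. The median log2 ratio of the 6 (high over low, on mean CPM plus 1, as for every log2 ratio below) was 0.57, against 0.03 over all 551 transcripts tested, where a transcript needed a read in 50% or more of the low cells or of the high cells. A ratio was called at 4-fold or more. Among all tested transcripts 65 were called as higher in high cells (11.8%) and 35 as higher in low cells (6.35%). A transcript could enter through 1 group alone, as vasa-2 did with reads in 20 of 41 low and 16 of 23 high cells. With no filter the counts were 2601 and 2934, so the larger number in high cells depended on the filter. Of the stem cell list 1 of 6, vasa-1, was called. The median of the list was -0.02 among cells with at least 50% of reads assigned, -0.30 among cells numbered 20 to 43, and -1.0 and -0.09 within the X2 cells of Groups 4 and 5 of the clustering described further on, so its direction did not hold in every subset of cells.

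The PIWI gene piwi-2 (SmedASXL_018810), needed for neoblasts to regenerate tissue, had reads in every low and every high cell. In low cells it ran from 0.611 to 9750 CPM with a median of 56.4 CPM, and in high cells from 1.2 to 8012 CPM with a median of 1037 CPM. The ranges were nearly the same and the medians far apart, as 19 of 41 low cells and 15 of 23 high cells were at 100 CPM or more. The log2 ratio of the means was 0.64, since the mean of low cells, 947 CPM, was carried by its upper cells. Over 18 other ways of choosing or scaling the cells, this ratio ran from -1.54 (cells numbered 20 to 43) to 2.8 (cells 44 to 67) and was below 0 in 3. Low piwi-1 was thus not low piwi-2 in a large share of cells.

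The third PIWI gene, piwi-3 (SmedASXL_002725), had a median of 3.12 CPM in low cells (range 0 to 3897 CPM) and 4.65 CPM in high cells (0 to 3153 CPM). It was at 100 CPM or more in 10 of 41 low cells and 9 of 23 high cells, and the log2 ratio of the means was 0.51, or below 0 in 4 of the 18 alternatives, with a lowest value of -0.92. In both groups most cells were near 0 and a minority lay far above.

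The vasa genes code for DEAD-box RNA helicases of germ and stem cells. The called gene, vasa-1 (SmedASXL_006346), had a mean of 17.3 CPM in low cells and 170 CPM in high cells (log2 ratio 3.23), but its medians were 0.28 and 0.54 CPM. Of the 41 low cells 2 were at 100 CPM or more, with a highest value of 375 CPM, and of the 23 high cells 3 were, with a highest of 1798 CPM. Without the highest high cell the log2 ratio was 2.4, and within the X2 cells of Group 4 alone it was -4.21, so its direction rested on few cells. For vasa-2 (SmedASXL_006546) the means were 55.4 and 132 CPM (log2 ratio 1.2, or 0.2 without the highest high cell, and -6.55 for cells numbered 68 to 91), and 3 cells of either group reached 100 CPM.

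The RNA-binding protein gene bruli (SmedASXL_009464), required for neoblast maintenance, and HP1-1 (SmedASXL_004476), a heterochromatin protein of neoblasts, had slightly higher means in low cells. For bruli these were 113 CPM in low and 80.0 CPM in high cells, where 1 of 23 cells at 1806 CPM supplied nearly all of the mean and the next cell was at 17.3 CPM. For HP1-1 they were 111 and 92.6 CPM, with 9 of 41 and 5 of 23 cells at 100 CPM or more. The share of cells with a read of HP1-1 after thinning was higher in high cells, at 39.1% against 24.4% in low cells. Neither direction of the means held throughout, as the log2 ratio was above 0 in 2 of the 18 alternatives for bruli and in 5 for HP1-1. As a reference outside the list, the cytoskeletal gene α-tubulin (SmedASXL_017404) had medians of 6.71 and 52.2 CPM and means of 101 and 147 CPM (log2 ratio 0.53), so a difference of the size seen for piwi-2 and piwi-3 also occurred in a gene that is no stem cell marker.

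**Figure D3:**
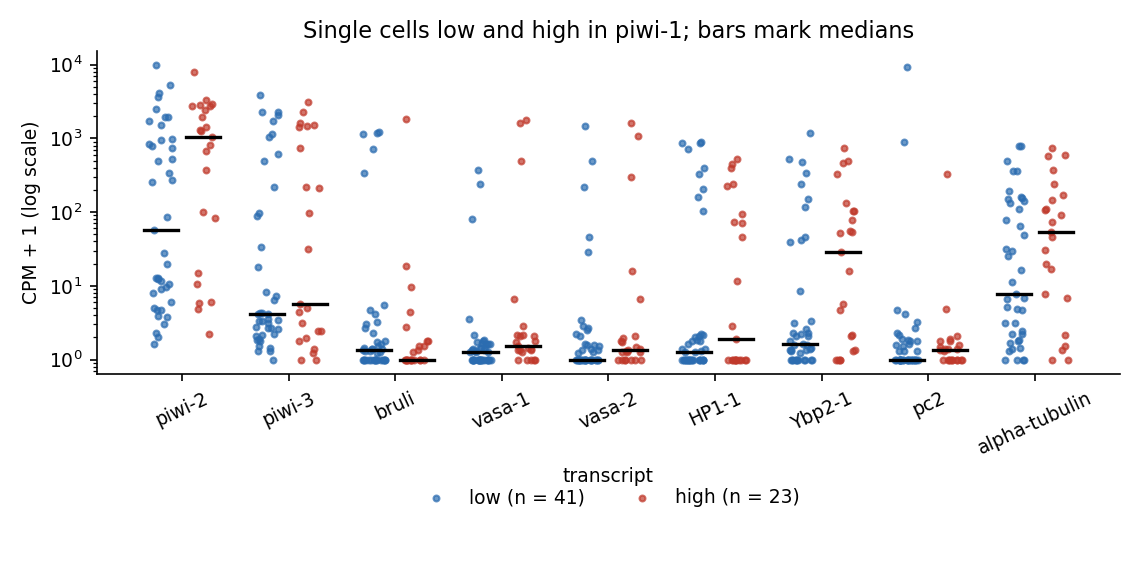
Level in CPM plus 1 (log scale) of the 6 stem cell transcripts, Ybp2-1, pc2 and α-tubulin in each of the 41 low cells (blue) and 23 high cells (red), with bars at the medians. The medians of piwi-2 are 56.4 and 1037 CPM, while the highest cells are at 9750 and 8012 CPM, and pc2 has 1 low cell at 9419 CPM.

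Counted per cell after thinning, where 1 read stands for 10 CPM, low cells had reads of 1.8 ± 1.09 (SD, n = 41) of the 6 stem cell transcripts and high cells of 2.5 ± 1.2 (SD, n = 23). None of the 6 was read in 4 of 41 low cells (9.76%) and in 1 of 23 high cells (4.35%). No low cell had reads of more than 4 of them, and 1 high cell had reads of 5. The same cuts in the X1 gate gave 29 low and 56 high cells with 2.6 ± 1.2 (SD, n = 29) and 5.09 ± 1.2 (SD, n = 56) of the 6, and there all 6 genes had a higher mean in high cells (median log2 ratio 1.6). Whether the gates differ in this was not tested.

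The 65 and 35 transcripts called over all of them rested largely on single cells. In 36 of the 65 more than 50% of the summed CPM of high cells came from 1 cell, and in 18 of the 35 the same held for low cells. Leaving out the highest cell of the group with the higher mean, transcript by transcript, left 31 of the 65 and 15 of the 35 at 4-fold or more. All 65 transcripts higher in high cells and 25 of the 35 higher in low cells were at 1 CPM or more in the X2 tube. The same shares over all 551 tested transcripts are not given here, so these counts are not read as particular to the called ones. With the authors' normalized values in place of CPM the counts were 59 and 19, and the median log2 ratio of all tested transcripts moved from 0.03 to 0.34. By mean alone, 279 of the 551 transcripts (50.6%) were above in high cells.

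Shares of cells with a read, which a single cell cannot dominate, leaned toward high cells but passed 40 percentage points for no transcript. After thinning, 388 transcripts were read in at least 20% of low and high cells together, and none differed by 40 percentage points or more in either direction (0% each). This depended on the cut and on the random draw, as SmedASXL_018715 was at 39.98 points and a second random thinning took some transcripts past 40 points. The median difference was 5.78 points toward high cells. The shares depend on the random thinning for transcripts near 1 read, so the share expected over all thinnings was also computed; on that measure 30 of 374 (8.02%) were 20 points higher in high cells and 0 in low cells.

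The unnamed transcripts with the largest differences in thinned share were SmedASXL_018715, read in 5 of 41 low and 12 of 23 high cells, and SmedASXL_075006, read in 17 and 18. Their differences of 39.98 and 36.8 points were 26.0 and 33.5 points in the expected shares. Their mean levels went the other way. These were 17.4 CPM in low and 15.4 CPM in high cells for SmedASXL_018715 (log2 ratio -0.17). For SmedASXL_075006 they were 259 and 180 CPM (log2 ratio -0.52). The direction of both means depended on the highest low cell, as without it the log2 ratios were 0.35 and 0.24. With the highest cell of each group left out they were 0.05 and -0.45. The medians of both transcripts were higher in high cells, as the shares were. On the other side, SmedASXL_020847 was read in 14 of 41 low and 1 of 23 high cells and SmedASXL_065337 in 26 and 9. These differences of -29.8 and -24.3 points were -16.1 and -14.0 points in the expected shares, and the log2 ratios of the means, -1.14 and -1.20, had the same direction.

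Lists of neoblast classes gave few reads. Of the sigma class list, named for a broad class of neoblasts, soxP-2 (SmedASXL_013986), a SoxP-family transcription factor, had a mean of 36.0 CPM in low cells and 98.8 CPM in high cells (log2 ratio 1.4). The ratio of soxP-2 turned to -0.18 among cells with 1.5 to 4 M assigned reads and to -1.63 within Group 6. For soxP-1 (SmedASXL_013552) the means were 97.4 and 42.5 CPM. The value of soxP-1 in high cells came from 1 cell at 971 CPM, as the next was at 2.02 CPM. The kinase gene nlk-1 (SmedASXL_005509) had means of 50.5 and 64.5 CPM (log2 ratio 0.35). Without the highest high cell, at 800 CPM, its mean in high cells was 31.1 CPM and the log2 ratio -0.68, and the ratio was below 0 in 6 of the 18 alternatives (-0.85 with cuts at 10 and 200 CPM, -6.62 for cells numbered 20 to 43), so nlk-1 showed no steady direction. A read of the receptor gene fgfr-4 (SmedASXL_016233) was found in 2 low and 4 high cells, and none of inx-13 (SmedASXL_013857) in either group. Of these 5 genes 2 were tested and none was called, and the median log2 ratio of the list, 0.35, was that of nlk-1.

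The zeta class list, named for the neoblasts that give rise to epidermis, was represented by 3 of 5 genes, of which none had reads in enough cells to be tested. The zinc finger gene zfp-1 (SmedASXL_001731), required for this class, had reads in 8 of 41 low and 7 of 23 high cells. Its mean was 0.352 CPM in low and 83.2 CPM in high cells, where 1 cell was at 1803 CPM and the next at 80.7 CPM. The log2 ratio was 5.96, or 2.15 without the highest high cell. It was above 0 in all 18 alternatives, with a lowest value of 0.31, but these reuse the same cells and are not independent. For soxP-3 (SmedASXL_004704) 4 low cells and 1 high cell had reads, and for fgfr-1 (SmedASXL_015337) 0 low cells and 1 high cell. The log2 ratio of soxP-3 was -1.27. The median of the 3, 0.20, was that of fgfr-1, whose 1 high cell with reads was at 3.39 CPM.

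Neural transcripts had lower means in high cells for all 6 of the 7 listed genes that could be paired with a transcript, with a median log2 ratio of -4.18, but much of this came from single low cells. The prohormone convertase gene pc2 (SmedASXL_009486) was called, with means of 252 CPM in low and 14.5 CPM in high cells (log2 ratio -4.03) and medians of 0 and 0.36 CPM. Of the low cells 1 was at 9419 CPM and the next at 891 CPM, and without the highest low cell the log2 ratio was -0.61. These 2 cells were near the cut, with piwi-1 at 16.4 and 16.1 CPM, and with cuts at 10 and 200 CPM, which leave them out, the log2 ratio was 3.63. That value rested in turn on 1 high cell at 324 CPM, as the next was at 3.86 CPM and the mean of high cells without it was 0.465 CPM. The gene chat (SmedASXL_012349), for the enzyme that makes acetylcholine, was spread over more cells, with reads in 32 of 41 low and 19 of 23 high cells, medians of 5.86 and 2.5 CPM and means of 68.4 and 22.4 CPM (log2 ratio -1.57). Its ratio was below 0 in 17 of the 18 alternatives, but only -0.21 among cells with 1.5 to 4 M assigned reads and 2.2 within Group 4.

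The remaining neural genes were read in few cells. For synapsin (SmedASXL_014276), a synaptic vesicle protein, 1 low cell was at 838 CPM and the next at 0.776 CPM, and for castor (SmedASXL_016911), a zinc finger transcription factor, 1 low cell was at 1398 CPM and the next at 1.7 CPM. The homeobox gene nkx2.4 (SmedASXL_011486) was above 100 CPM in 3 low cells and no high cell. The gene egr-4 (SmedASXL_009448), of the EGR family of zinc finger transcription factors, had reads in 2 low cells and 1 high cell, at no more than 7.09 CPM. For synapsin, castor and nkx2.4 no high cell had a read after thinning (0 of 23, exact 95% interval 0% to 14.8%), and low cells had 1, 1 and 3 of 41, so a difference was not detectable at this number of cells.

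On the other lists few genes were read, and the means of those that were came mostly from few cells. None of the 11 genes of the nu list, which the study used for a neural class of neoblasts, had reads in enough cells to be tested, and 6 of them (msi-1, elav3-11, elav3-16, grm-3, sec14-l2 and syt-11) had no read in any low or high X2 cell. Of the others, msi-2 was at 112 CPM in 1 low cell and elav-2 at 25.1 CPM in 1 low cell, and ptprd-9 and glrb reached at most 1.4 CPM. A read of ston-2 was found in 8 low and 6 high cells, with highest values of 5.06 and 79.9 CPM (log2 ratio 2.0, or 0.41 without the highest high cell). On the transcription factor list the SKI-family gene ski-3 was above 100 CPM in 3 low cells and at most 11.1 CPM in high cells (means 60.5 and 0.581 CPM, log2 ratio -5.28), but it had reads in too few cells to be tested. Its relative ski-1 was above 100 CPM in 2 low cells and 1 high cell (means 51.6 and 42.0 CPM, log2 ratio -0.29, or -5.56 without the highest high cell). The gene cux-1 was at 776 CPM in 1 low cell, alx-3 reached at most 5.12 CPM, and smad-4 was not read. Of the 6 genes 1 was tested, znf-91, with means of 49.1 and 59.8 CPM (log2 ratio 0.28). In high cells 1 cell at 1351 CPM supplied nearly all of this, as the next was at 16.6 CPM, and without it the mean was 1.07 CPM and the log2 ratio -4.60, past 4-fold in the other direction. None of the list was called, and its median log2 ratio was -0.15. The protonephridial gene pou2/3 (SmedASXL_008748), the single paired gene of the non-neural tissue list, had reads in 6 low and 6 high cells, and its means of 5.21 and 35.8 CPM came from 1 cell each, at 209 and 821 CPM (log2 ratio 2.6, or -2.45 without the highest high cell). The genes vglut, egr-1, gata123, myoD, foxa and gata456a were matched to no single transcript and were left out.

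**Figure D4:**
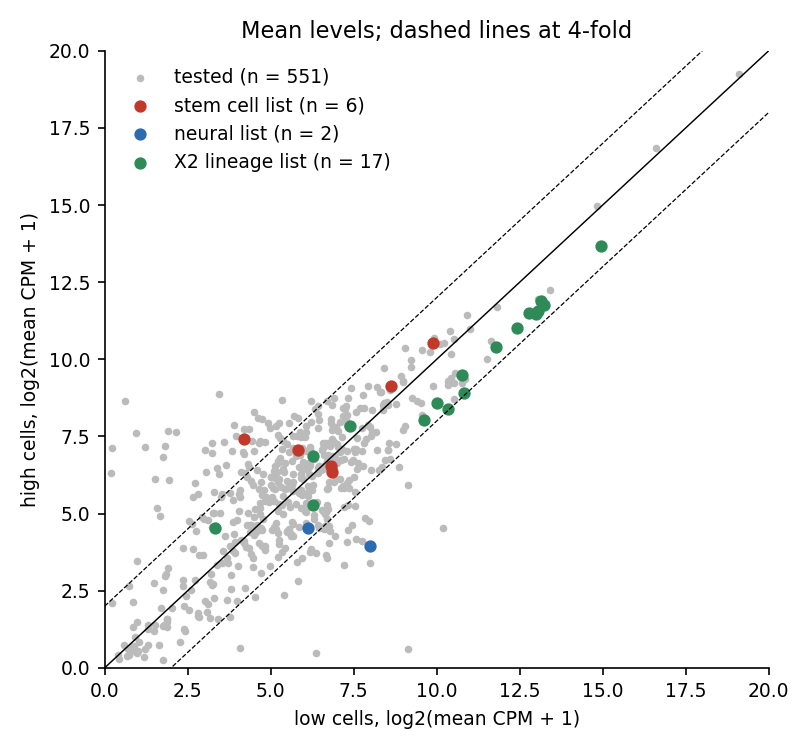
Mean level of each of the 551 tested transcripts in low cells (x axis) and high cells (y axis), both as log2 of mean CPM plus 1, with the line of equal levels and dashed lines at 4-fold. Red marks the 6 stem cell genes, blue the 2 tested neural genes and green the 17 X2 lineage entries, most of which lie below the line of equal levels.

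Most of the transcripts that the study lists for a lineage of X2 cells were above in low cells. Of the 17 entries 14 had a higher mean in low cells, none was called at 4-fold, and the median log2 ratio was -1.39. The table used here is 1 transcript short of the lineage list in the study's text, and that transcript was not analysed here. The study chose this list on these samples, so its direction is not independent evidence. GT-1 (SmedASXL_078929), the entry with the most reads, ran from 2860 to 287877 CPM in low cells (median 14439 CPM) and from 2641 to 49293 CPM in high cells (median 9036 CPM). GTPBP-6 (SmedASXL_018648) had medians of 3715 and 2600 CPM, SAS-1 (SmedASXL_006726) of 3899 and 2126 CPM, Mtrnr-2 (SmedASXL_072922) of 1269 and 1007 CPM, and IMTP-1 (SmedASXL_058032) of 389 and 312 CPM. The 9 entries without a name had log2 ratios from -1.96 to -0.99. Low and high cells overlapped for each of the 5 named entries, and each was read after thinning in every low and high cell.

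For most entries these levels were not found in the X2 tube. Of the 17 entries 14 were under 50 CPM there, from 0.221 to 48.3 CPM, and GT-1 was at 48.3 CPM (95% Poisson interval 44.7 to 52.2) against a lowest single cell of 2641 CPM. For 13 of the 17 the median over X2 cells was above the tube. Ybp2-2 is among the 14 but was no such case, as its tube level was above its medians in low and in high cells. Shares for all tested transcripts are not given for either count, so neither is read as particular to this list. Together the entries took 9.02% ± 12.6 (SD, n = 41) of the assigned reads of low cells and 3.50% ± 2.3 (SD, n = 23) of those of high cells. In the low cell numbered 55 they took 74.9%, and without it the mean of low cells was 7.38% ± 7.06.

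The share of these entries moved with the reads that reached no transcript. Across the 72 X2 cells the rank correlation of both shares was 0.86, a description of cells of 1 gate, in which both shares have the reads of the same cell as their base. In the 24 low and 20 high cells with at least 50% of reads assigned, the entries took 2.9% ± 1.4 (SD, n = 24) and 2.9% ± 1.4 (SD, n = 20), and the median log2 ratio of the list was -0.01. In the other 17 low cells the share had a median of 14.1% (range 2.9% to 74.9%). The difference between low and high cells was thus not seen among cells with most reads assigned, and within the X2 cells of Group 5 the median of the list was 0.39. Of the 17 entries as the study lists them, 8 hold the end of an Illumina adapter sequence within their first 40 bases, and 0 of its 19 other cloned genes do. Entries under 50 CPM in the tube were found both with and without these letters. Of the 8, yps-1 was at 104 CPM there and the others were at 0.221 to 48.3 CPM. Of the entries without the letters, IMTP-1 and Mtrnr-2 were at 1.99 and 16.4 CPM there and Ybp2-1 at 163 CPM. The part of the adapter sequence in the levels was not tested.

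**Figure D5:**
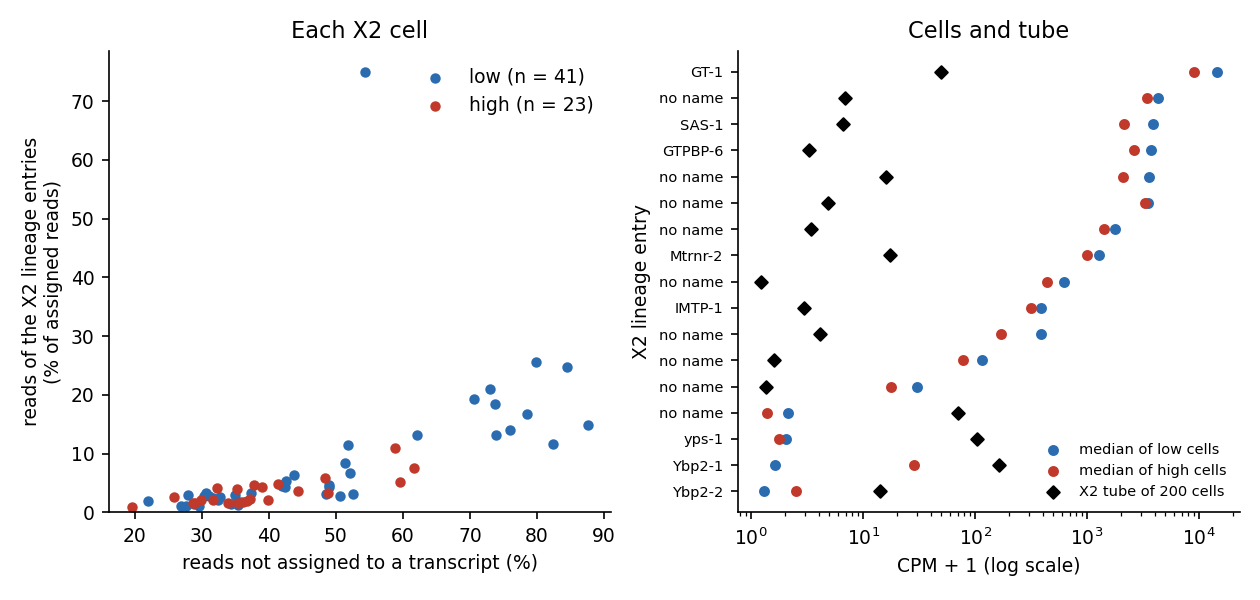
Left, the reads of the 17 X2 lineage entries in % of assigned reads against the reads assigned to no transcript in % of all reads, 1 point per cell, low cells blue and high cells red. Right, for each entry, the median CPM plus 1 (log scale) of low and high cells and the level in the X2 tube (diamond); GT-1 is at 14439, 9036 and 48.3 CPM.

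Ybp2-1, Ybp2-2 and yps-1 were the 3 entries with a higher mean in high cells. Ybp2-1 (SmedASXL_006362), whose start is printed above, had a median of 0.62 CPM in low cells (range 0 to 1174 CPM) and 27.8 CPM in high cells (0 to 747 CPM). After thinning it was read in 11 of 41 low cells (26.8%, exact 95% interval 14.2% to 42.9%) and 15 of 23 high cells (65.2%, 42.7% to 83.6%), a difference of 38.4 points, or 29.9 points in the expected shares, against a median of 5.78 points over all 388 transcripts. Its mean differed less, at 77.1 and 116 CPM (log2 ratio 0.58, but -0.32 for cells numbered 20 to 43 and -0.75 within Group 6), and it was at 163 CPM in the X2 tube, so unlike GT-1 it was not low there.

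Ybp2-2 (SmedASXL_009660) had means of 8.98 CPM in low and 22.0 CPM in high cells (log2 ratio 1.2, or -1.98 within Group 6), and was read after thinning in 10 of 41 and 10 of 23 cells. For yps-1 (SmedASXL_004469) the means were 168 and 227 CPM (log2 ratio 0.43, or -0.40 without the highest high cell), the medians 1.04 and 0.76 CPM and the thinned shares 16 of 41 and 7 of 23 cells. Of the 3, Ybp2-1 had the largest difference in share and yps-1 a share in the opposite direction.

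Low and high cells shared the largest groups of X2 cells that clustering gives, but not all of its groups. Among all 72 X2 cells 41 were low and 23 were high. The X2 cells were placed in the 10 groups of a hierarchical clustering of the 1000 most variable transcripts, rebuilt as the study describes. Low cells made up 9 of 17 X2 cells of Group 4 (52.9%, exact 95% interval 27.8% to 77.0%), 15 of 28 of Group 5 (53.6%, 33.9% to 72.5%) and 9 of 14 of Group 6 (64.3%, 35.1% to 87.2%), and high cells 6, 12 and 4. The remaining high cell was in Group 7, and Groups 8 to 10 held 8 low cells and no high cell. Within Group 5 low cells had 2014 transcripts on average and high cells 1975, and within Group 6 1389 and 2011, so the direction seen in all cells did not hold in each group. By the cell numbers in the labels, low cells made up 15 of the 24 cells numbered 20 to 43, 12 of 24 numbered 44 to 67 and 14 of 24 numbered 68 to 91.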

How the data were processed

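The data are SmartSeq2 libraries of single X1 and X2 cells and of tubes of 200 cells. The authors deposited unnormalized read counts for 67983 transcripts of the SmedASXL assembly, with 1 further entry for reads assigned to none. The submitters' processing notes name bcl2fastq 1.8.3, Bowtie2 2.2.4 and DESeq2. The second table holds normalized, Winsorized signal values that the authors derived from the counts, and served for clustering and as an alternative. All columns were used. No 2 X2 cells had identical counts, and no doublet caller was run.

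CPM were counts over all assigned reads. Cells were thinned without replacement to 100000 reads (numpy 2.4.6, seed 1), and none was left out by this. Ratios used means of CPM with a pseudocount of 1. Intervals are exact 95% binomial or Poisson intervals (scipy 1.17.1). TMM factors came from edgeR 4.0.16 in R 4.3.3. The ratio and the thinning were tested on simulated data with a smaller spread between cells than genes such as pc2 had. Means carried by 1 cell are therefore not covered by it.

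Gene names came from the study's tables, or from its listed marker values where these picked out 1 transcript (22 of 28 names; r at least 0.996, the next transcript at most 0.885); 17 X2 lineage entries were used. Named were all genes so paired, and, of the unnamed transcripts, 2 at either end of the difference in thinned share. The members and lists were chosen with earlier results of these data known. Alternatives were other cuts, cell subsets, scalings, pseudocounts and filters.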

Additional observations from a re-analysis of the deposited data

How the results depend on the processing

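Low and high X2 cells were split and compared again under each alternative. The cause of the movements was not tested. The number of transcripts tested under each alternative is not given, so the counts below carry no shares. The ratio of transcripts per cell stayed between 0.98 and 1.4. In the order higher in high cells, then in low cells, the 4-fold counts of 65 and 35 and the 40-point counts of 0 and 0 moved as follows. With cuts at 10 and 200 CPM 104 transcripts were 4-fold higher in high cells and 3 were read in 40 points more of them; the neural list was at -0.95, the non-neural tissue list (pou2/3 alone) at 5.33 and pc2 at 3.63. With piwi-1 CPM taken over all counted reads, unassigned ones included, 3 passed 40 points. Without the low and the high cell with the most transcripts 1 passed 40 points and the non-neural tissue list was at -2.48. With 1.5 to 4 M assigned reads, 53 were 4-fold higher in low cells, 2 passed 40 points in high cells and the non-neural tissue list was at -2.77.

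Subsets hold fewer cells, and in each subset below more transcripts passed. The part of cell number in this was not tested. For cells numbered 20 to 43 the 4-fold counts were 126 and 315, the 40-point counts 29 and 20, the neural list -0.18 and the non-neural tissue list -3.90. For cells 44 to 67 they were 328 and 199, 37 and 5, -1.43 and 5.81, with the stem cell list at 3.34 and the sigma class list at 1.7. For cells 68 to 91 they were 173 and 180, 16 and 7, -0.28 and 0.26, with pc2 at 0.14. Within Group 4 they were 316 and 196, 42 and 21, 0.063 and 7.02, with the transcription factor list at -1.69, the X2 lineage list at -0.24, vasa-1 at -4.21 and pc2 at 5.34. Within Group 5 they were 162 and 105, and 7 and 10, with the non-neural tissue list at -3.75 and the X2 lineage list at 0.39. Within Group 6 they were 489 and 223, 51 and 11, -0.074 and 0.20, with pc2 at 0.22.

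Among values, the deposited normalized values gave 19 transcripts 4-fold higher in low cells and the neural list at -3.04, and reads summed over cells gave the neural list at -3.25. Without the highest cell of each group per transcript 55 were 4-fold higher in low cells, the neural list was at -1.0, the non-neural tissue list at 0.028 and the transcription factor list at -1.99. With a pseudocount of 10, 22 were 4-fold higher in low cells and the neural list was at -1.76. With no filter on low values the counts were 2601 and 2934. At 5 or more reads after thinning 3 passed 40 points in high cells, and 1 without thinning.

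Chosen after seeing the data, cells with at least 50% of reads assigned gave 61 transcripts 4-fold higher in low cells, 3 past 40 points in high cells, the neural list at -0.60 and the X2 lineage list at -0.0071, and a second random thinning gave 2 past 40 points. The expected shares gave 0 and 0, CPM without the most abundant transcript 63 and 27 4-fold counts, and transcripts at 1 CPM or more in the X2 tube a ratio per cell of 1.1 (1.2 thinned). No paired analysis was possible because all X2 cells are 1 sample and no test was made. Depth limits transcripts below 10 CPM, which is 1 read after thinning.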
